A study of Mus musculus with 9 samples.

Results

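The genes described here are 10 regulators of the G1 phase of the cell cycle: the D-type cyclin genes Ccnd1, Ccnd2 and Ccnd3, the E-type cyclin genes Ccne1 and Ccne2, the kinase genes Cdk4 and Cdk6, the inhibitor genes Cdkn1a and Cdkn1b, and the proto-oncogene Myc. They were taken by symbol, with earlier results of these data known, and make up 10 of the 22001 genes in the deposited count table. All 10 passed the filter on low counts and so stood among the 11469 genes tested. RNA had been sequenced from cultured bone marrow-derived macrophages of C57BL6 mice, phagocytes grown from bone marrow precursors, in 9 libraries of 3 labelled groups. Libraries A2plus, B2plus and C2plus were labelled as treated with 100 µg/ml Pam3CSK4 and 100 µl/ml 3SL, a volume whose content is not stated. Libraries D1, D2 and D3 were labelled as treated with 100 µg/ml Pam3CSK4 alone. Libraries A2, B2 and C2 were labelled as untreated, with PBS. All were labelled as taken at 6 h. Pam3CSK4 is a synthetic lipopeptide that activates Toll-like receptor 2, and 3SL is taken from the series title to be 3'-sialyllactose, a milk oligosaccharide. The growth factor in the medium and the number of mice or cultures behind a group are not stated in the labels.

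A cell decides in G1 whether to copy its DNA or to stay out of the cycle. Mitogens, in macrophages above all CSF1, raise D-type cyclins, which bind CDK4 or CDK6 and start to phosphorylate the retinoblastoma protein; this releases E2F factors, which switch on the E-type cyclins and the genes of DNA replication. E-type cyclins with CDK2 then complete the step, p21 (from Cdkn1a) and p27 (from Cdkn1b) restrain these kinases, and MYC raises transcription of growth and cycle genes. In macrophages, cyclin D1 is a classic CSF1-induced gene, and activation by microbial products is known to halt CSF1-driven division.

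Levels are given as CPM, read counts relative to the library size after TMM scaling for depth and composition, and as CPM per kilobase of exon where different genes are compared. Total counts ran from 7472482 in A2plus to 43980309 in B2, and the member with the fewest reads in any library was Ccne1, with 34 reads in A2plus. The inflammatory genes Il1b and Tnf went against the labels: Il1b stood at 7489 to 8554 CPM in 3SL-labelled libraries, at 4.30 to 7.35 CPM in Pam3CSK4-labelled libraries and at 9653 to 10550.4 CPM in untreated-labelled libraries, and Tnf had the same order. The groups are therefore called by their labels throughout, and no direction below is a shown effect of a compound. The letter D occurs only in the names of the Pam3CSK4 group and A, B and C only in the others, so a difference that involves that group cannot be told apart from whatever the letters stand for. Since these are bulk samples, fewer cells of a type and less RNA per cell cannot be told apart.

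The cells expressed macrophage genes in every group. The 8 macrophage markers, all of them tested, summed to 9501 to 9639 CPM in 3SL-labelled libraries, 6477 to 6653 CPM in Pam3CSK4-labelled libraries and 9510 to 9666 CPM in untreated-labelled libraries. The macrophage markers went both ways: Adgre1 averaged 1295 CPM in Pam3CSK4-labelled and 4296 CPM in untreated-labelled libraries, while Cd68 averaged 1412 and 1025 CPM and Mertk 96.2 and 48.4 CPM in the same order. Markers of bone marrow precursors were low, and their sums were highest in Pam3CSK4-labelled libraries, though not every marker was. The 7 neutrophil and granulocyte progenitor markers, 6 of them tested, summed to 93.0 to 98.7, 113 to 137 and 107 to 109 CPM in the 3SL-, Pam3CSK4- and untreated-labelled libraries. Among them Mpo averaged 21.3, 40.1 and 18.9 CPM in that order of groups, and Elane 5.77, 12.5 and 5.81 CPM, whereas Camp averaged 11.01, 7.01 and 14.1 CPM and Ltf 49.7, 52.1 and 58.9 CPM. The 6 stem, erythroid and mast cell markers, 2 of them tested, summed to 3.23 to 7.44, 8.72 to 11.1 and 3.92 to 5.95 CPM in the same order of groups. Lymphocyte markers, none of the 6 tested, stayed under 1.64 CPM in sum, with Cd3e at 0 in the Pam3CSK4-labelled group. The 5 dendritic cell markers, 2 of them tested, summed to 2.34 to 3.23, 0.959 to 2.75 and 4.13 to 5.07 CPM, and the 5 stromal markers, 1 of them tested, to 7.16 to 9.98, 1.72 to 2.64 and 11.8 to 13.04 CPM in the same order. The part of these other cells in the results on the G1 genes was not tested.

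Promoter sequences from RefSeq (build GRCm38.p6, 250 bases before to 50 bases after a start site) matched 6 of the 10 genes, with 8 start sites; Ccnd1, Ccnd2, Ccne2 and Myc had no match. Those of 5 genes that moved between the labelled groups are printed because they hold matches to the words below in different mixes. Capitals mark every match to the words searched on both strands: the E2F word TTTNNCGC, the E-box CACGTG that MYC and related factors bind, and the GC box GGGCGG of SP1-type factors, which reads CCGCCC on the other strand.
Ccne1, chr7:38107441-38107740, minus strand: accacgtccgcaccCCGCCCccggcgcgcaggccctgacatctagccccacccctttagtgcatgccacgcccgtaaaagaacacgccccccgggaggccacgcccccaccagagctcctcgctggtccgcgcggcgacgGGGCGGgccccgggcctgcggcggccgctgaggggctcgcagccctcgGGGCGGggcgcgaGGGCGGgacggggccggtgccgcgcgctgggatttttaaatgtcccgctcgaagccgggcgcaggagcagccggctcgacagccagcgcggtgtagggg
Cdk4, chr10:127063285-127063584, plus strand: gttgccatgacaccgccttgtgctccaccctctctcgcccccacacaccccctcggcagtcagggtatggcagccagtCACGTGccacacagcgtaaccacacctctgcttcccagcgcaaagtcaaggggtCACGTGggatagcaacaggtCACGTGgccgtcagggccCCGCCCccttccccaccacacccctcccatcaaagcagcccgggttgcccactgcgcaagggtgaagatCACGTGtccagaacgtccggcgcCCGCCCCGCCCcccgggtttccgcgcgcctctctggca
Cdk6, chr5:3343643-3343942, plus strand: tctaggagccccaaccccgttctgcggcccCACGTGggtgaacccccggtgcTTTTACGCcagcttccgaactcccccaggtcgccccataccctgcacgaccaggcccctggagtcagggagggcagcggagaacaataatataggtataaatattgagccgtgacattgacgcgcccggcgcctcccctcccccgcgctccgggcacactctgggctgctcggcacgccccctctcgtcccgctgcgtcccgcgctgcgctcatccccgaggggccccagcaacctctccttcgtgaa
Cdkn1a, downstream start, chr17:29093519-29093818, plus strand: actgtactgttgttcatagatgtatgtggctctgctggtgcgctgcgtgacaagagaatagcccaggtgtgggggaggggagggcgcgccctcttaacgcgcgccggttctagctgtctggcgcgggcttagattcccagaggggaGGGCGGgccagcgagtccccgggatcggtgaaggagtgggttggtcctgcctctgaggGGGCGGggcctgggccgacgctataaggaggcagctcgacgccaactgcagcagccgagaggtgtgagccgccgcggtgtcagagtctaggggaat
Cdkn1b, chr6:134920151-134920450, plus strand: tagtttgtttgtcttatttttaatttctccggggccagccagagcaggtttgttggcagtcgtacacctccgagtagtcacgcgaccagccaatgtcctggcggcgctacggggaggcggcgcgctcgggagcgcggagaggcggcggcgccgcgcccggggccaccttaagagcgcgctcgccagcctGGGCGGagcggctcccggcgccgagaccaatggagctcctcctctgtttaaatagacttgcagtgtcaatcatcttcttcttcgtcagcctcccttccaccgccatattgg

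The Cdk4 promoter held 4 E-boxes, whose first bases lay at -172, -118, -98 and -11 counted from +1 at the start site. An E-box was present in 7.15% of all 32851 RefSeq promoter windows of that length, and at least 4 were present in 8 windows, or 0.0244%; that count was made after the Cdk4 sequence had been seen. The Cdk6 promoter held 1 E-box at -220 and 1 E2F word at -198, a word found in 5.17% of all windows. No other window of these genes, that of Ccne1 included, held the E2F word. GC boxes, found in 35.7% of all windows, numbered 4 in Ccne1, 3 in Cdk4, 2 in the downstream Cdkn1a promoter and 1 in Cdkn1b. In Cdk4, 2 of them, at +13 and +18, share a base. The windows of Ccnd3, which are not printed, also held GC boxes, 2 in each. The upstream Cdkn1a window, also not printed, held no match to any word. The CHR word TTTGAA (17.9% of all windows), the AP-1 word TGANTCA (7.81%) and the NF-kB motif (8.46%) were not in any of the 8 windows. A match is a description of letters, and binding was not measured.

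The Pam3CSK4-labelled libraries had the higher levels of most cyclins and of both kinases and the lower levels of inhibitors. Against untreated-labelled libraries, 6 of the 10 genes were higher (Ccnd1, Ccne1, Ccne2, Cdk4, Cdk6 and Myc), 3 were lower (Ccnd2, Cdkn1a and Cdkn1b) and Ccnd3 did not pass the test. Each was called at an adjusted p under 0.05 in edgeR's quasi-likelihood test, fitted to all genes. Of all tested genes, 75.0% were called in this comparison, 39.0% higher and 35.9% lower, so the count of members is read against a background that is already high. The median absolute log2 change was 0.940 over the 10 genes, against 0.452 over all tested genes. The groups did not overlap for 9 of the 10 genes, nor for 76.0% of all tested genes.

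With 3SL on the label as well as Pam3CSK4, 3 genes were higher than in Pam3CSK4-labelled libraries (Ccnd2, Cdkn1a and Cdkn1b), 5 were lower (Ccnd1, Ccne1, Ccne2, Cdk4 and Cdk6), and Ccnd3 and Myc did not pass the test. This comparison shares Pam3CSK4-labelled libraries with the one above, so its values are not a second observation of them. It called 71.5% of all tested genes, 34.7% higher and 36.8% lower. The median absolute log2 change was 0.824 over the 10 genes and 0.440 over all tested genes. The groups did not overlap for 8 of the 10 genes, nor for 73.1% of all tested genes.

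**Figure D1:**
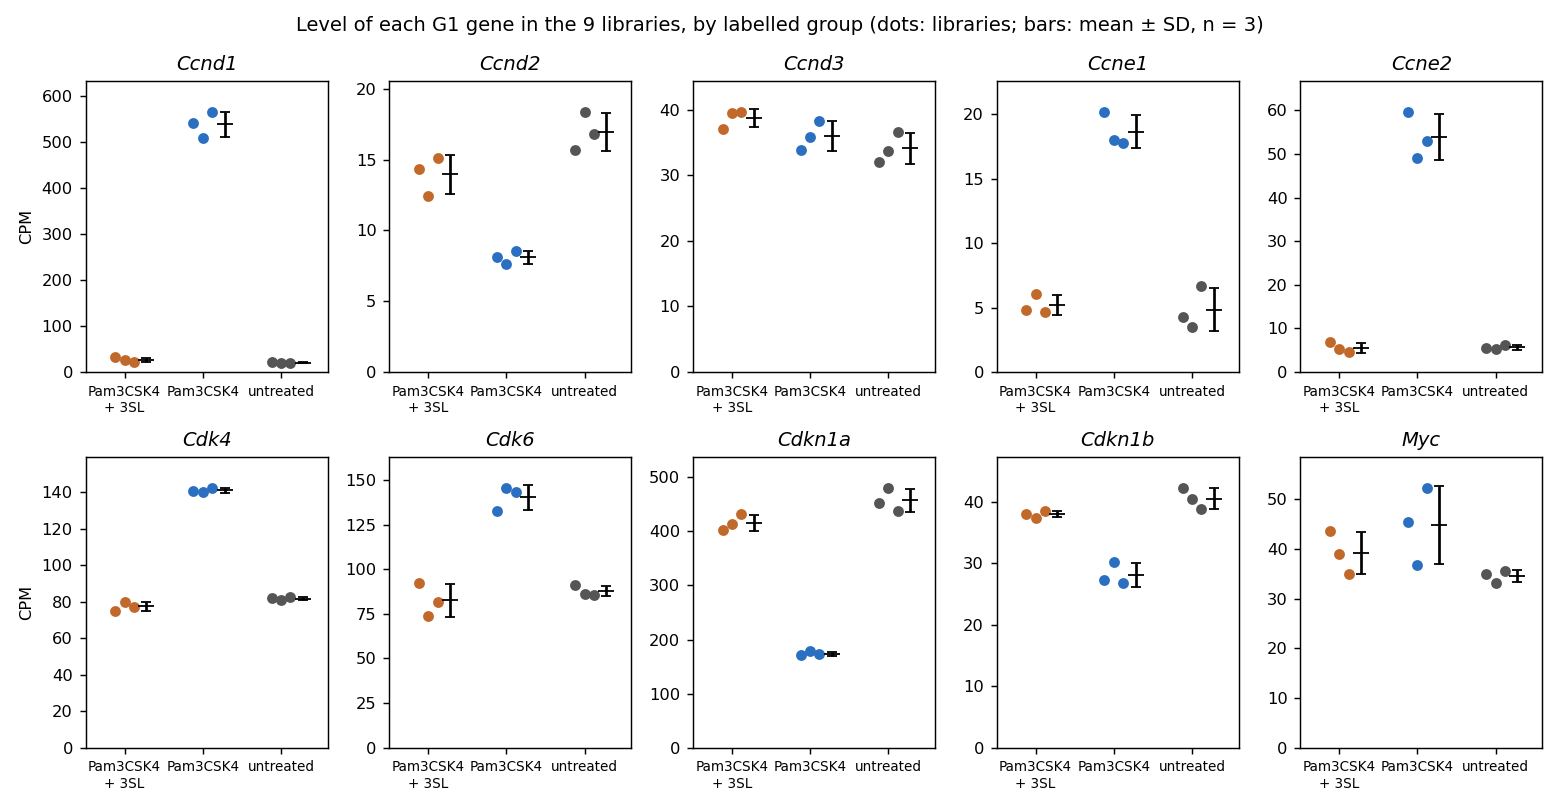
Level of each of the 10 genes in CPM (vertical axes from 0) in the 3 libraries of each labelled group; dots are libraries, and the bar beside them is the mean ± SD (n = 3). Ccnd1 lies between 510 and 566 CPM in Pam3CSK4-labelled libraries and under 32 CPM in all others, Cdkn1a and Ccnd2 are lowest in Pam3CSK4-labelled libraries, and the Myc values of the groups lie close together.

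Ccnd1 encodes cyclin D1, the mitogen-induced partner of CDK4 and CDK6. It had 31.7, 25.1 and 22.3 CPM in A2plus, B2plus and C2plus, 542, 510 and 566 CPM in D1, D2 and D3, and 21.2, 19.4 and 19.8 CPM in A2, B2 and C2. The Pam3CSK4-labelled libraries stood far above both other groups, and 3SL-labelled libraries all stood above untreated-labelled ones by a small margin. It was 26.9-fold higher in Pam3CSK4-labelled than in untreated-labelled libraries, a log2 change of 4.75 ± 0.06 (SE, n = 3 each; edgeR adjusted p = 8.57e-30), the 9th largest rise of the 11469 tested genes. Relative to Pam3CSK4-labelled libraries, it was 20.8-fold lower in 3SL-labelled ones, a log2 change of -4.38 ± 0.07 (SE; edgeR adjusted p = 2.56e-28). The gene lies at chr7:144929931-144939925 on the minus strand (ENSMUSG00000070348; GRCm38, GENCODE M21, as for the genes below), and 1100 bp of its exons overlap those of LTO1 on the opposite strand. LTO1 averaged 19.98 ± 1.54 CPM in Pam3CSK4-labelled and 21.4 ± 0.739 CPM in untreated-labelled libraries (SD, n = 3 each; edgeR adjusted p = 0.338).

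Ccnd2 (ENSMUSG00000000184, chr6:127125162-127152193, minus strand) encodes cyclin D2, a second partner of the same kinases, and ran the other way. It had 14.3, 12.4 and 15.1 CPM in 3SL-labelled libraries, 8.15, 7.63 and 8.55 CPM in Pam3CSK4-labelled libraries, and 15.7, 18.4 and 16.8 CPM in untreated-labelled libraries. All Pam3CSK4-labelled libraries were below all others. It was 2.13-fold lower in Pam3CSK4-labelled than in untreated-labelled libraries, a log2 change of -1.09 ± 0.10 (SE; edgeR adjusted p = 2.07e-10), and 1.72-fold higher in 3SL-labelled than in Pam3CSK4-labelled libraries, a log2 change of 0.78 ± 0.12 (SE; edgeR adjusted p = 1.47e-06). With total library size alone the second change was 0.51 (edgeR adjusted p = 3.39e-04).

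Ccnd3 (ENSMUSG00000034165, chr17:47505051-47599691, plus strand), for cyclin D3, varied least of the D-type cyclins. It had 37.1, 39.5 and 39.6 CPM in 3SL-labelled libraries, 33.8, 35.8 and 38.3 CPM in Pam3CSK4-labelled libraries and 31.96, 33.7 and 36.7 CPM in untreated-labelled libraries. The Pam3CSK4-labelled values overlapped both other groups. The log2 change was 0.09 ± 0.07 in Pam3CSK4-labelled against untreated-labelled libraries (SE; edgeR adjusted p = 0.231) and 0.11 ± 0.07 in 3SL-labelled against Pam3CSK4-labelled libraries (edgeR adjusted p = 0.176). Both depended on the scaling. With total library size alone, which put the median log2 change of all genes at 0.34 and -0.29 in these comparisons, Ccnd3 was called higher in the first, with a log2 change of 0.40 (edgeR adjusted p = 5.09e-06), and lower in the second, with -0.16 (edgeR adjusted p = 0.0423). Its exons share 361 bp with those of Bysl on the opposite strand, which had a log2 change of 0.05 ± 0.07 in Pam3CSK4-labelled against untreated-labelled libraries (SE; edgeR adjusted p = 0.511). Exons of Ccnd2, Cdk6 and Cdkn1a also overlap opposite-strand genes, which are not among the genes of the deposited counts.

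As a family the D-type cyclins shifted almost wholly to cyclin D1 messenger in Pam3CSK4-labelled libraries. Per kilobase, Ccnd1 made up 48.5 ± 5.19% of the summed D-type cyclin level in 3SL-labelled libraries, 95.8 ± 0.196% in Pam3CSK4-labelled libraries and 43.0 ± 2.54% in untreated-labelled libraries (SD, n = 3 each). Ccnd2 made up 12.9 ± 1.62%, 0.721 ± 0.00489% and 18.1 ± 1.40% in the same order, and Ccnd3 38.6 ± 4.15%, 3.44 ± 0.199% and 39.0 ± 1.98%. The summed level was 11.5 ± 0.862 CPM per kilobase in 3SL-labelled, 119.5 ± 6.08 in Pam3CSK4-labelled and 9.97 ± 0.187 in untreated-labelled libraries. Sum and mix thus both stood apart in D1, D2 and D3. Without division by length the Ccnd1 share was 33.3%, 92.4% and 28.3% in that order.

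Ccne1 (ENSMUSG00000002068, chr7:38097984-38107534, minus strand) and Ccne2 (ENSMUSG00000028212, chr4:11191351-11204779, plus strand) encode cyclins E1 and E2, the activators of CDK2 at the start of S phase and themselves E2F-controlled genes. Ccne1 had 4.77, 6.07 and 4.67 CPM in 3SL-labelled libraries, 20.1, 18.01 and 17.8 CPM in Pam3CSK4-labelled libraries, and 4.30, 3.48 and 6.68 CPM in untreated-labelled libraries. Ccne2 had 6.88, 5.28 and 4.67 CPM in 3SL-labelled libraries, 59.6, 49.1 and 52.99 CPM in Pam3CSK4-labelled libraries, and 5.51, 5.21 and 6.25 CPM in untreated-labelled libraries. For both genes Pam3CSK4-labelled libraries stood apart, while the other groups overlapped.

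In Pam3CSK4-labelled against untreated-labelled libraries, Ccne1 was 4.35-fold higher, with a log2 change of 2.12 ± 0.14 (SE; edgeR adjusted p = 1.64e-13). Ccne2 was 9.80-fold higher in the same comparison, with a log2 change of 3.29 ± 0.10 (SE; edgeR adjusted p = 9.49e-22), the 80th largest rise of the tested genes. Ccne1 was 3.56-fold lower in 3SL-labelled than in Pam3CSK4-labelled libraries, with a log2 change of -1.83 ± 0.16 (SE; edgeR adjusted p = 7.32e-11). Ccne2 was 9.76-fold lower there, with a log2 change of -3.29 ± 0.12 (SE; edgeR adjusted p = 7.63e-20). The mix of the pair changed as well. Per kilobase, Ccne2 was 45.1 ± 6.44% of the E-type cyclin sum in 3SL-labelled libraries. Its share was 68.7 ± 1.05% in Pam3CSK4-labelled and 48.1 ± 5.95% in untreated-labelled libraries (SD, n = 3 each). Without division by length the Ccne2 share was 51.9% in 3SL-labelled, 74.3% in Pam3CSK4-labelled and 54.8% in untreated-labelled libraries. Exons of Ccne2 and Ints8 overlap by 609 bp on opposite strands, and Ints8 was lower in Pam3CSK4-labelled than in untreated-labelled libraries, with a log2 change of -0.60 ± 0.06 (SE; edgeR adjusted p = 8.05e-10).

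**Figure D2:**
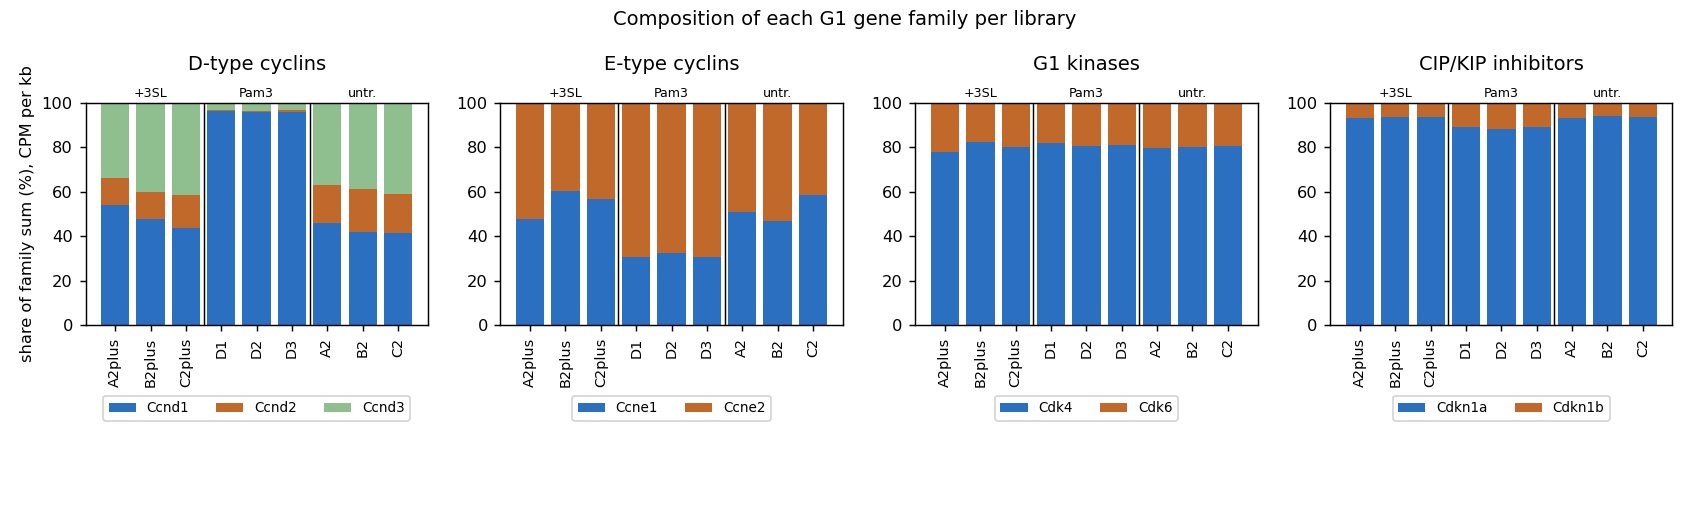
Share (%) of each member in the sum of its family's levels (CPM per kilobase of exon) in each library; 3SL-labelled libraries (+3SL), Pam3CSK4-labelled libraries (Pam3) and untreated-labelled libraries (untr.) are separated by vertical lines. Ccnd1 fills about 96% of the D-type cyclin bar in D1, D2 and D3 and under 54% in the others, Ccne2 fills over 67% of the E-type bar there, and the Cdk4 to Cdk6 ratio is nearly the same in all bars.

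The kinase genes Cdk4 (ENSMUSG00000006728, chr10:127063534-127067920, plus strand) and Cdk6 (ENSMUSG00000040274, chr5:3341485-3531008, plus strand) encode the catalytic partners of the D-type cyclins. They differed between the groups by less than the cyclins that changed most. Cdk4 had 75.1, 79.8 and 77.4 CPM in 3SL-labelled libraries, 141, 140.3 and 142 CPM in Pam3CSK4-labelled libraries, and 82.0, 80.8 and 82.5 CPM in untreated-labelled libraries. Cdk6 had 92.1, 73.8 and 81.9 CPM in 3SL-labelled libraries, 132, 145 and 143 CPM in Pam3CSK4-labelled libraries, and 91.1, 86.3 and 85.7 CPM in untreated-labelled libraries. No Pam3CSK4-labelled library overlapped another group for either gene.

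Cdk4 was 1.73-fold higher in Pam3CSK4-labelled than in untreated-labelled libraries, a log2 change of 0.79 ± 0.04 (SE; edgeR adjusted p = 3.37e-16), and 1.82-fold lower in 3SL-labelled than in Pam3CSK4-labelled libraries, a log2 change of -0.86 ± 0.04 (SE; edgeR adjusted p = 3.98e-16). Cdk6 was 1.60-fold higher in the first comparison, a log2 change of 0.68 ± 0.05 (SE; edgeR adjusted p = 3.91e-12), and 1.71-fold lower in the second, a log2 change of -0.78 ± 0.06 (SE; edgeR adjusted p = 1.68e-12). Per kilobase, the Cdk4 share of the kinase sum lay between 77.8% and 82.3% in all 9 libraries. It averaged 80.1 ± 2.25% in 3SL-labelled, 81.2 ± 0.734% in Pam3CSK4-labelled and 80.1 ± 0.542% in untreated-labelled libraries (SD, n = 3 each). Without division by length the Cdk4 share was 48.5%, 50.2% and 48.3% in that order, so its size depends on the exon lengths. The promoters printed above differ in kind, since that of Cdk4 holds 4 E-boxes and 3 GC boxes and that of Cdk6 holds 1 E-box, 1 E2F word and no GC box. Exons of Cdk4 and Tspan31 overlap by 641 bp on opposite strands, and Tspan31 had a log2 change of -0.26 ± 0.05 in Pam3CSK4-labelled against untreated-labelled libraries (SE; edgeR adjusted p = 3.48e-05).

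Cdkn1a (ENSMUSG00000023067, chr17:29090976-29100727, plus strand) encodes p21, an inhibitor of CDK2 complexes and a well-known target of p53, and was the inhibitor with the higher level. It had 403, 413 and 432 CPM in 3SL-labelled libraries, 171, 178 and 173 CPM in Pam3CSK4-labelled libraries, and 453, 480.2 and 438 CPM in untreated-labelled libraries. The 3 groups did not overlap one another. It was 2.63-fold lower in Pam3CSK4-labelled than in untreated-labelled libraries, a log2 change of -1.40 ± 0.04 (SE; edgeR adjusted p = 2.08e-22), and 2.39-fold higher in 3SL-labelled than in Pam3CSK4-labelled libraries, a log2 change of 1.26 ± 0.04 (SE; edgeR adjusted p = 5.19e-21).

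Cdkn1b (ENSMUSG00000003031, chr6:134920401-134925513, plus strand) encodes p27, which holds cyclin E and CDK2 complexes inactive in resting cells. It had 38.1, 37.4 and 38.4 CPM in 3SL-labelled libraries, 27.3, 30.2 and 26.7 CPM in Pam3CSK4-labelled libraries, and 42.2, 40.4 and 38.8 CPM in untreated-labelled libraries. The Pam3CSK4-labelled libraries were again the low ones. It was 1.44-fold lower in Pam3CSK4-labelled than in untreated-labelled libraries, a log2 change of -0.53 ± 0.07 (SE; edgeR adjusted p = 4.82e-08), and 1.35-fold higher in 3SL-labelled than in Pam3CSK4-labelled libraries, a log2 change of 0.43 ± 0.07 (SE; edgeR adjusted p = 7.47e-06). With total library size alone the first change was -0.21 (edgeR adjusted p = 0.00477) and the second 0.15 and not called (edgeR adjusted p = 0.0560). Per kilobase the inhibitors summed to 125 ± 4.19 CPM in 3SL-labelled, 55.1 ± 1.40 in Pam3CSK4-labelled and 138 ± 6.14 in untreated-labelled libraries, and Cdkn1a made up 93.3 ± 0.193%, 88.8 ± 0.478% and 93.5 ± 0.306% of that sum in the same order (SD, n = 3 each).

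Myc (ENSMUSG00000022346, chr15:61985391-61990374, plus strand), whose product drives growth and can replace part of the mitogen signal, changed least of the genes called between Pam3CSK4-labelled and untreated-labelled libraries. It had 43.5, 38.9 and 35.0 CPM in 3SL-labelled libraries, 45.5, 36.7 and 52.3 CPM in Pam3CSK4-labelled libraries, and 35.1, 33.1 and 35.5 CPM in untreated-labelled libraries. The Pam3CSK4-labelled libraries were the most spread, with D2 within the range of 3SL-labelled ones. It was 1.30-fold higher in Pam3CSK4-labelled than in untreated-labelled libraries, a log2 change of 0.38 ± 0.09 (SE; edgeR adjusted p = 4.40e-04). In 3SL-labelled against Pam3CSK4-labelled libraries the log2 change was -0.19 ± 0.10 (SE; edgeR adjusted p = 0.0730). Whether this second change was called depended on the processing and on single libraries. It was -0.47 and called with total library size (edgeR adjusted p = 9.60e-05), -0.22 and called with no filter on low counts (edgeR adjusted p = 0.00586) and -0.23 and called after thinning to equal depth (edgeR adjusted p = 0.0422). Without D2 it was -0.33 and called (edgeR adjusted p = 0.00124) and without A2plus -0.26 and called (edgeR adjusted p = 0.0278), whereas without D3 it was -0.070 and not called (edgeR adjusted p = 0.511). With total library size the first change was 0.69 (edgeR adjusted p = 8.44e-08).

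**Figure D3:**
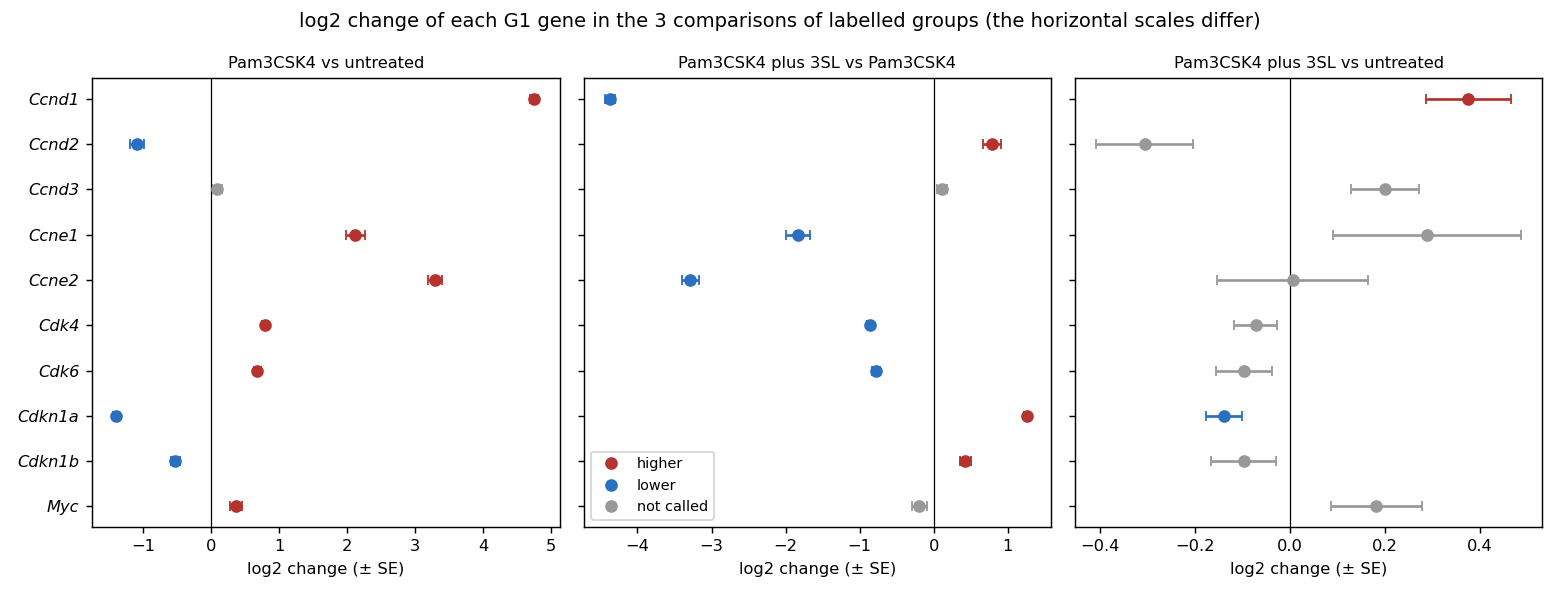
Fitted log2 change with its SE (horizontal axes, each with its own scale) of the 10 genes in the 3 comparisons; red is called higher, blue called lower and grey not called at an adjusted p of 0.05. Changes span -1.40 to 4.75 in the first panel and -4.38 to 1.26 in the second, whereas all lie between -0.31 and 0.37 in the third.

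By the median change of these genes, 3SL-labelled and untreated-labelled libraries were closer to each other than either was to Pam3CSK4-labelled libraries. Between 3SL-labelled and untreated-labelled libraries the median absolute log2 change was 0.160 over the 10 genes, against 0.0937 over all tested genes. Ccnd1 was higher in 3SL-labelled libraries, 1.30-fold or a log2 change of 0.37 ± 0.09 (SE; edgeR adjusted p = 0.00610), and Cdkn1a was lower, 1.10-fold or a log2 change of -0.14 ± 0.04 (SE; edgeR adjusted p = 0.0152). The other 8 genes did not pass the test, beside 8.94% of all tested genes called, 3.83% higher and 5.11% lower. Groups did not overlap for 6 of the 10 genes, nor for 24.0% of all tested genes. Of the 8, Ccnd2 came closest, with a log2 change of -0.31 ± 0.10 (SE; edgeR adjusted p = 0.0593), followed by Ccnd3 with 0.20 ± 0.07 (SE; edgeR adjusted p = 0.0817). Myc had 0.18 ± 0.10 (SE; edgeR adjusted p = 0.287), Ccne1 0.29 ± 0.20 (edgeR adjusted p = 0.438), and Ccne2, Cdk4, Cdk6 and Cdkn1b lay between -0.10 and 0.01.

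Neither call held without B2 or without A2plus. Without B2, the deepest library, the Ccnd1 change was 0.33 (edgeR adjusted p = 0.0662) and the Cdkn1a change -0.10 (edgeR adjusted p = 0.166). Without A2plus, the shallowest library and the one with the highest Ccnd1 level of its group, they were 0.25 (edgeR adjusted p = 0.0839) and -0.12 (edgeR adjusted p = 0.107). Ccnd2 was called lower without A2 (log2 change -0.36, edgeR adjusted p = 0.0440) or without C2plus (-0.38, edgeR adjusted p = 0.0450), and Ccnd3 was called higher without C2 (0.24, edgeR adjusted p = 0.0413).

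Ordered by level per kilobase, the 10 genes stood differently in the Pam3CSK4-labelled group. In 3SL-labelled libraries Cdkn1a was highest at 117 ± 4.13 CPM per kilobase, ahead of Cdk4 at 23.8 ± 0.723, Myc at 14.4 ± 1.56 and Cdkn1b at 8.33 ± 0.114 (SD, n = 3). Cdk6 at 5.90 and Ccnd1 at 5.61 came next and overlapped, then Ccnd3 at 4.41, then Ccne1 at 1.94, Ccne2 at 1.61 and Ccnd2 at 1.48, each of which overlapped its neighbour. In Pam3CSK4-labelled libraries Ccnd1 led at 114.5 ± 5.90 CPM per kilobase, followed by Cdkn1a at 49.0 ± 1.004 and Cdk4 at 43.4 ± 0.364 (SD, n = 3). Below them came Myc at 16.5 and Ccne2 at 15.4, which overlapped, then Cdk6 at 10.03, Ccne1 at 7.01, Cdkn1b at 6.17, Ccnd3 at 4.10 and Ccnd2 at 0.862. In untreated-labelled libraries Cdkn1a led at 128.7 ± 6.00 CPM per kilobase, ahead of Cdk4 at 25.2 ± 0.279, Myc at 12.7 ± 0.464, Cdkn1b at 8.89 ± 0.377 and Cdk6 at 6.27 ± 0.212 (SD, n = 3). Ccnd1 at 4.28 overlapped Ccnd3 at 3.89, and Ccne1 at 1.81, Ccnd2 at 1.80 and Ccne2 at 1.62 overlapped at the bottom. Ccnd1 thus ranked first in the Pam3CSK4-labelled group and sixth in the other groups. The order within a group depends on the exon lengths. Without division by length, Cdk6 averaged more than Cdk4 in 3SL-labelled (82.6 and 77.5 CPM) and untreated-labelled libraries (87.7 and 81.8 CPM).

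For 4 of the genes, the 3 tested genes with the nearest pattern were found by the distance between centred log2(CPM + 1) profiles over the 9 libraries. Nearest to Ccnd1 were Gcnt1, Fam198b and Nanos1, at distances of 0.562, 0.582 and 0.683. Gcnt1 averaged 8.05 CPM in 3SL-labelled, 133 CPM in Pam3CSK4-labelled and 5.76 CPM in untreated-labelled libraries. Nearest to Ccnd2 were Peli1, Kctd10 and Phldb1, at 0.210, 0.213 and 0.229, and Peli1 averaged 62.2, 39.5 and 76.3 CPM in the same order of groups. Nearest to Cdkn1a were Gsdmd, Tank and Acot9, at 0.110, 0.132 and 0.135, and Gsdmd averaged 120, 51.2 and 134 CPM. Nearest to Myc were Nsun5, Elk3 and Kcnn4, at 0.184, 0.267 and 0.278, and Nsun5 averaged 8.11, 9.30 and 7.24 CPM. The measure matters: with Pearson's correlation as the measure, 1 of the 3 genes was shared for Ccnd1 and Myc and 0 for Ccnd2 and Cdkn1a. That correlation was above 0.99 with Ccnd1 for 499 tested genes and with Cdkn1a for 778, against 6 for Ccnd2 and 0 for Myc. A correlation ignores the size of a change, so these counts do not show changes as large as those of Ccnd1 or Cdkn1a. The gene with the highest correlation with Ccnd1 averaged 63.2, 141 and 58.0 CPM in the same order of groups, at a distance of 4.66.

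Genes that act after the G1 cyclins were higher in the same libraries. All 19 E2F-controlled genes of the G1/S transition on the list were higher in Pam3CSK4-labelled than in untreated-labelled libraries, with a median log2 change of 2.73, against 0.03 over all tested genes, of which 39.0% were higher. Mcm2, a subunit of the replicative helicase, averaged 187 ± 9.69 CPM in Pam3CSK4-labelled and 13.2 ± 0.850 CPM in untreated-labelled libraries (SD, n = 3 each), a log2 change of 3.86 ± 0.06 (SE; edgeR adjusted p = 3.34e-28). Its partner Mcm6 averaged 389 ± 12.6 CPM and 34.7 ± 3.40 CPM, a log2 change of 3.45 ± 0.05 (SE; edgeR adjusted p = 2.68e-28). All 19 were lower in 3SL-labelled than in Pam3CSK4-labelled libraries, with a median of -2.76. In that comparison 34.7% of all tested genes were higher and 36.8% lower, a background that also applies to the lists below. For 3SL-labelled against untreated-labelled libraries the background, here and below, was 8.94% called, 3.83% higher and 5.11% lower. Calls of list genes were not checked under other processing or without single libraries. Between 3SL-labelled and untreated-labelled libraries 18 did not pass the test; Cdt1, a licensing factor for replication origins, was called higher, with a log2 change of 0.46 ± 0.10 (SE; edgeR adjusted p = 0.00303), and Mcm4 had 0.23 ± 0.08 (edgeR adjusted p = 0.0869).

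The 11 genes of mitosis and G2/M were also all higher in Pam3CSK4-labelled than in untreated-labelled libraries, by less, with a median log2 change of 0.78. Of all tested genes, 39.0% were higher in that comparison, and 36.8% were lower in 3SL-labelled against Pam3CSK4-labelled libraries. Top2a, the DNA topoisomerase of dividing cells, averaged 393 ± 9.48 CPM in Pam3CSK4-labelled and 197 ± 7.72 CPM in untreated-labelled libraries (SD, n = 3 each; log2 change 0.99 ± 0.04 SE, edgeR adjusted p = 2.27e-19). Foxm1, a transcription factor of G2/M genes, had a log2 change of 1.54 ± 0.07 (SE; edgeR adjusted p = 2.29e-17). All 11 were lower in 3SL-labelled than in Pam3CSK4-labelled libraries, with a median of -0.87, and none passed the test in 3SL-labelled against untreated-labelled libraries, where Ccnb1 had a log2 change of -0.16 ± 0.07 (SE; edgeR adjusted p = 0.173) and Birc5 -0.13 ± 0.07 (edgeR adjusted p = 0.324).

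Among the 13 pocket protein, E2F and DP genes, 10 were higher and 2 lower (E2f4 and E2f5) in Pam3CSK4-labelled than in untreated-labelled libraries, with a median log2 change of 1.14, beside 39.0% of all tested genes higher and 35.9% lower. E2f2, an activating E2F, averaged 39.5 ± 1.46 CPM in Pam3CSK4-labelled and 1.69 ± 0.344 CPM in untreated-labelled libraries (SD, n = 3 each), a log2 change of 4.41 ± 0.12 (SE; edgeR adjusted p = 1.81e-22). Rbl1, which encodes the pocket protein p107, had a log2 change of 2.20 ± 0.06 (SE; edgeR adjusted p = 5.69e-23). The background for 3SL-labelled against untreated-labelled libraries was 3.83% of all tested genes higher and 5.11% lower. Relative to Pam3CSK4-labelled libraries, 1 of the 13 (E2f5) was higher and 10 were lower in 3SL-labelled ones. Relative to untreated-labelled libraries, E2f2 was the 1 called gene, with 3.49 ± 0.918 CPM in 3SL-labelled libraries and 1.69 ± 0.344 CPM (SD, n = 3 each), a log2 change of 0.90 ± 0.21 (SE; edgeR adjusted p = 0.00591), while E2f8 had -0.35 ± 0.15 (edgeR adjusted p = 0.145).

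Of the 8 other G1/S cyclins, kinases and activators, 5 were higher (Ccna2, Cdk1, Cdk2, Ccnh and Cdc25a) and 3 lower in Pam3CSK4-labelled than in untreated-labelled libraries, where 39.0% of all tested genes were higher and 35.9% lower. Ccna2, for the S phase cyclin A2, had a log2 change of 1.35 ± 0.04 (SE; edgeR adjusted p = 8.53e-21), and Cdk2, for the partner of the E-type cyclins, 1.45 ± 0.06 (SE; edgeR adjusted p = 8.96e-18). The lower genes included Cdk7 and Mnat1, for subunits of the CDK-activating kinase, with log2 changes of -0.39 and -0.52. Ccnh, for another subunit of that kinase, had 0.37 and was among the higher genes. The remaining lower gene was Cdc37, a co-chaperone of CDK4, with -0.58. Cdk7, Mnat1 and Cdc37 were higher and the other 5 lower in 3SL-labelled than in Pam3CSK4-labelled libraries. None of the 8 passed the test between 3SL-labelled and untreated-labelled libraries, Mnat1 having a log2 change of -0.23 ± 0.09 (SE; edgeR adjusted p = 0.113) and Cdc37 -0.11 ± 0.04 (edgeR adjusted p = 0.0674).

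The inhibitors outside the list of 10 did not all follow Cdkn1a and Cdkn1b. Of 5, Cdkn2a was not tested, with at most 25 counts in a library. Of the 4 tested, Cdkn2c (p18, an inhibitor of CDK4 and CDK6) was higher in Pam3CSK4-labelled than in untreated-labelled libraries, with means of 58.5 ± 0.686 and 16.5 ± 2.13 CPM (SD; edgeR adjusted p = 7.75e-17). Cdkn2b (p15, of the same family) was lower, with means of 1.38 ± 0.122 and 6.03 ± 0.456 CPM (SD; edgeR adjusted p = 6.17e-11), and the other 2, Cdkn1c and Cdkn2d, did not pass. Of all tested genes, 39.0% were higher and 35.9% lower in Pam3CSK4-labelled against untreated-labelled libraries. In 3SL-labelled against untreated-labelled libraries these shares were 3.83% and 5.11%. From Pam3CSK4-labelled libraries, 3SL-labelled ones differed by higher Cdkn2b and lower Cdkn2c. Cdkn2b was also called higher in 3SL-labelled than in untreated-labelled libraries, with means of 8.41 ± 1.24 and 6.03 ± 0.456 CPM (SD; edgeR adjusted p = 0.0293), whereas Cdkn2c had a log2 change of -0.20 ± 0.11 (SE; edgeR adjusted p = 0.328).

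**Figure D4:**
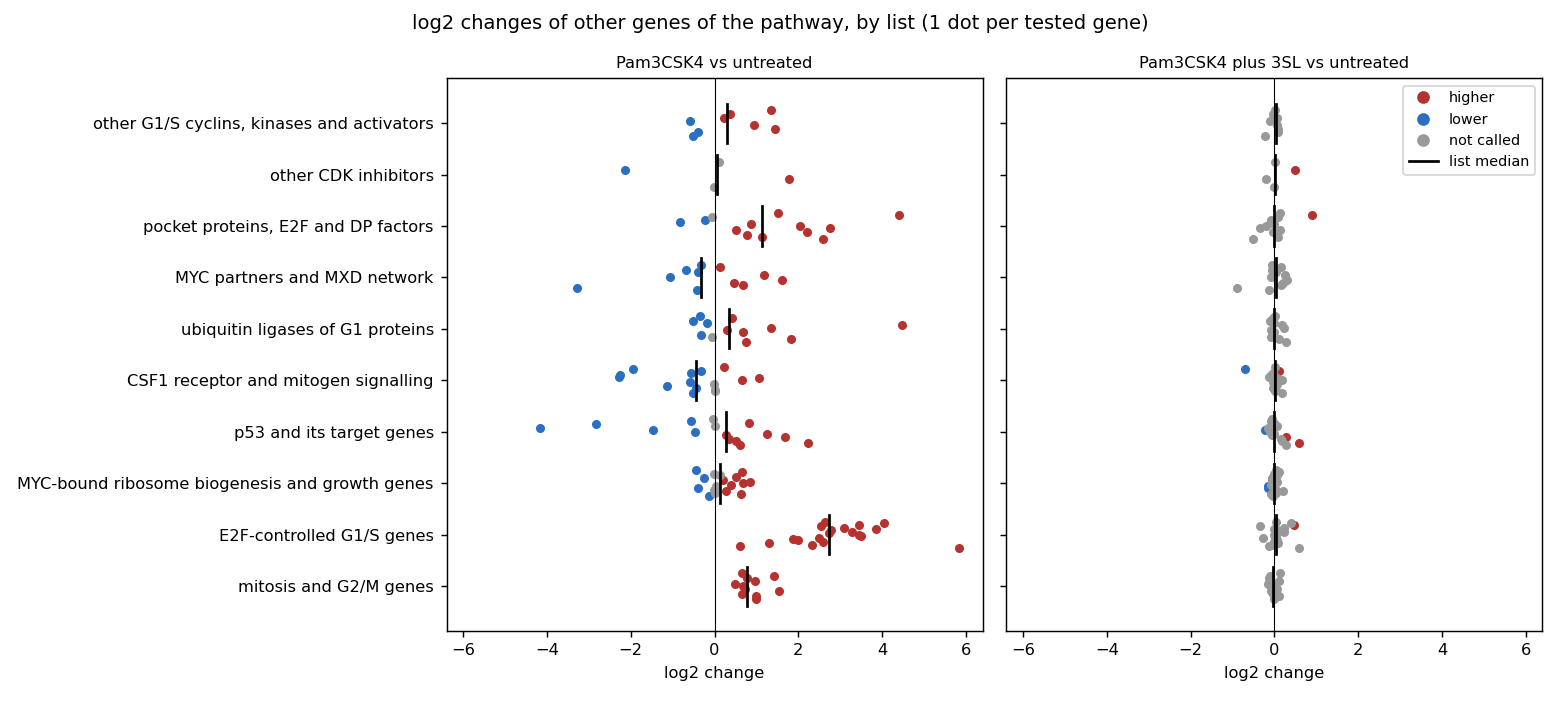
log2 changes (horizontal axis, the same scale in both panels) of the other genes of the pathway, 1 dot per tested gene in 10 lists; red is called higher, blue called lower, grey not called, and the vertical bar is the list median. In Pam3CSK4-labelled against untreated-labelled libraries all dots of the E2F-controlled list (median 2.73) and of the mitosis list (median 0.78) lie to the right of 0, the other lists straddle it, and in 3SL-labelled against untreated-labelled libraries most dots lie near 0.

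Around MYC, 11 of 12 partners and antagonists were tested; Mycn, with at most 7 counts in a library, was not. In Pam3CSK4-labelled against untreated-labelled libraries 5 were higher (Mxi1, Mxd3, Mxd4, Mnt and Mga) and 6 lower. All 11 were thus called, beside 75.0% of all tested genes, 39.0% higher and 35.9% lower. The antagonist Mxd1 had a log2 change of -1.07 ± 0.08 (SE; edgeR adjusted p = 1.40e-12) and the antagonist Mnt 1.19 ± 0.08 (SE; edgeR adjusted p = 5.73e-14), so MYC antagonists moved both ways. Between 3SL-labelled and Pam3CSK4-labelled libraries 6 were higher and 4 lower (Mxi1, Mxd3, Mxd4 and Mnt) in 3SL-labelled ones. Between 3SL-labelled and untreated-labelled libraries none of the 11 passed, Mnt having 0.26 ± 0.09 (SE; edgeR adjusted p = 0.0704) and Mga 0.16 ± 0.06 (edgeR adjusted p = 0.0659).

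Of 17 MYC-bound genes of ribosome biogenesis and growth, 8 were higher and 4 lower (Odc1, Bop1, Wdr43 and Mybbp1a) in Pam3CSK4-labelled than in untreated-labelled libraries, with a median log2 change of 0.14. The number called lay near the background, in which 75.0% of all tested genes were called, 39.0% higher and 35.9% lower. The nucleolar genes Nolc1, with 0.84 ± 0.05 (SE; edgeR adjusted p = 1.64e-14), and Nop56, with 0.68 ± 0.05 (SE; edgeR adjusted p = 6.70e-12), had the smallest p. The background for 3SL-labelled against untreated-labelled libraries was 3.83% of all tested genes higher and 5.11% lower. Among the 17, Odc1, Bop1 and Mybbp1a were higher and 8 genes lower in 3SL-labelled than in Pam3CSK4-labelled libraries. Relative to untreated-labelled libraries 2 were lower: Npm1, for nucleophosmin, with a log2 change of -0.14 ± 0.04 (SE; edgeR adjusted p = 0.00882), and Odc1, for the first enzyme of polyamine synthesis, with -0.16 ± 0.05 (SE; edgeR adjusted p = 0.0434).

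The ubiquitin ligase genes that act on G1 proteins numbered 12, of which 7 were higher and 4 lower (Cul1, Rbx1, Ambra1 and Ddb1) in Pam3CSK4-labelled than in untreated-labelled libraries, against 39.0% and 35.9% of all tested genes. Skp2, for the subunit that marks p27 for destruction, averaged 29.8 ± 0.724 CPM in Pam3CSK4-labelled and 8.38 ± 0.743 CPM in untreated-labelled libraries (SD, n = 3 each), a log2 change of 1.82 ± 0.09 (SE; edgeR adjusted p = 8.95e-17). Dtl, for the subunit that marks p21 and CDT1 in S phase, averaged 58.6 ± 3.03 CPM and 2.42 ± 0.499 CPM, a log2 change of 4.47 ± 0.11 (SE; edgeR adjusted p = 1.00e-23). Cul1, Rbx1, Ambra1 and Ddb1 were higher and 7 genes lower in 3SL-labelled than in Pam3CSK4-labelled libraries. None of the 12 passed between 3SL-labelled and untreated-labelled libraries, where Cul1 had -0.12 ± 0.04 (SE; edgeR adjusted p = 0.0808) and Usp28 0.28 ± 0.10 (edgeR adjusted p = 0.0981).

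Of 15 genes of CSF1 receptor and mitogen signalling, 3 were higher (Akt1, Foxo1 and Foxo3) and 9 lower in Pam3CSK4-labelled than in untreated-labelled libraries, with a median log2 change of -0.44, against 39.0% of all tested genes higher and 35.9% lower. Csf2rb, the shared receptor subunit for GM-CSF, had a log2 change of -2.25 ± 0.04 (SE; edgeR adjusted p = 5.92e-28), and Ets2, a transcription factor of this pathway, -2.27 ± 0.05 (SE; edgeR adjusted p = 1.11e-25). The background for 3SL-labelled against untreated-labelled libraries was 3.83% of all tested genes higher and 5.11% lower. Relative to Pam3CSK4-labelled libraries, 9 of the 15 were higher and Akt1, Foxo1 and Foxo3 were lower in 3SL-labelled ones. Relative to untreated-labelled libraries, the ligand gene Csf1 was lower, with means of 8.64 ± 1.86 and 14.04 ± 0.233 CPM (SD; edgeR adjusted p = 3.48e-04), and the receptor gene Csf1r was higher by a log2 change of 0.10 ± 0.03 (SE; edgeR adjusted p = 0.0165).

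The list of p53 and its targets, a pathway to which Cdkn1a belongs, held 15 genes. In Pam3CSK4-labelled against untreated-labelled libraries 8 were higher and 5 lower (Fas, Btg2, Gadd45a, Bax and Mdm2). Of all tested genes, 39.0% were higher and 35.9% lower in that comparison. In 3SL-labelled against untreated-labelled libraries these shares were 3.83% and 5.11%. Fas, for a death receptor, had a log2 change of -4.17 ± 0.08 (SE; edgeR adjusted p = 1.59e-26) and Btg2, for an antiproliferative factor, -2.84 ± 0.08 (SE; edgeR adjusted p = 5.14e-22). Those 5 were higher and 7 others lower in 3SL-labelled than in Pam3CSK4-labelled libraries. Relative to untreated-labelled libraries 2 were higher and 1, Gadd45a, lower in 3SL-labelled ones; Trp53inp1 had a log2 change of 0.58 ± 0.13 (SE; edgeR adjusted p = 0.00503) and Sesn1 0.27 ± 0.07 (SE; edgeR adjusted p = 0.0162), both higher.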

How the data were processed

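RNA was sequenced in 9 libraries, 3 per labelled group, grouped by their GEO descriptions; titles of 3SL libraries say Pamc4 instead. The authors deposited raw counts per gene in 1 table, of which 15 columns of other samples were not used. The submitters' processing notes list HISAT2 2.1.0, featureCounts and Subread with no roles, and the human build hg38, while all 22001 identifiers are mouse Ensembl identifiers. The annotation release and strand setting are not given in the sources used here, so reads of a gene and of an overlapping opposite-strand gene cannot be told apart. Per the labels' protocols, RNA was extracted with TRIzol and libraries made with a NEBNext Ultra RNA kit.

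Tests used edgeR 4.0.16 (R 4.3.3): filterByExpr, TMM factors, 1 quasi-likelihood fit with a mean per group over all 9 libraries, and Benjamini-Hochberg adjustment over 11469 genes with a threshold of 0.05. A log2 change is the first-named group over the second, with an SE derived from the F statistic. Exon lengths came from GENCODE M21 (GRCm38). Depth ran from 7472482 to 43980309 counts, at which 3 counts equal 0.421 and 0.0745 CPM; such floors cover counting error only. Whether replicates were separate cultures or animals is not stated, so p-values reflect the spread of these libraries, which may be technical. No pair of replicates looked like 1 library deposited again (chi-square over degrees of freedom 1.83 to 3.10).

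All 10 genes are named, with Il1b and Tnf as a check of the labels and the 3 genes of nearest pattern to Ccnd1, Ccnd2, Cdkn1a and Myc. From each of 10 pathway lists the 2 genes with the smallest p were named in Pam3CSK4-labelled against untreated-labelled libraries and in 3SL-labelled against untreated-labelled ones; other genes, given for counts of 5 or fewer, were named after their values were seen. The genes and lists were chosen with earlier results of these data known. Alternatives were other scalings, filters, DESeq2 1.42.0, thinning to equal depth, a minimum fold, 2 groups only, a block by letter, and leaving out each library.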

Additional observations from a re-analysis of the deposited data

How the results depend on the processing

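In Pam3CSK4-labelled against untreated-labelled libraries, 159 of 160 values of the 10 genes over 16 alternatives kept their direction and side of the threshold. In 3SL-labelled against Pam3CSK4-labelled libraries 153 of 160 did, and in 3SL-labelled against untreated-labelled libraries 151 of 170 did, over 17 alternatives. These counts leave out the minimum fold, given by its calls below. Calls of single genes of the pathway lists were not checked over the alternatives.

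With total library size in place of TMM, the genes called in Pam3CSK4-labelled against untreated-labelled libraries were 6882 higher and 2380 lower, and 74.3% of called genes were higher, against 52.0% with TMM. In 3SL-labelled against Pam3CSK4-labelled libraries they were 2434 higher and 6393 lower, with 27.6% of called genes higher, against 48.5%. In that comparison Ccnd3 reversed to -0.16, Cdkn1b lost its call and Myc gained one. Myc also gained a call there with no filter on low counts, after thinning, without D2 and without A2plus. In 3SL-labelled against untreated-labelled libraries, 787 genes were higher, with 66.0% of called genes higher, against 42.8%; of the 10 genes 2 were higher and 0 lower. A minimum fold of 1.5 left 3699 genes in Pam3CSK4-labelled against untreated-labelled libraries (2041 higher, 1658 lower), 3413 in 3SL-labelled against Pam3CSK4-labelled libraries (1579 higher, 1834 lower) and 6 in 3SL-labelled against untreated-labelled libraries (3 higher, 3 lower), where 0 of the 10 genes remained called. In the first of these, 7 of the 10 genes were called (5 higher, 2 lower) in place of 9, and in the second 7 (2 higher, 5 lower) in place of 8; Myc in the first and Cdkn1b in both had changed by less than that fold.

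In 3SL-labelled against untreated-labelled libraries, without a filter on low counts 2 of the 10 genes were lower. Leaving out 1 library at a time gave 626 to 1038 called genes, 270 to 435 higher and 356 to 603 lower, with the fewest without B2, and without A2plus 378 were lower. Of the 10 genes, 0 to 3 were called, 0 to 2 higher and 0 to 2 lower, with 0 called without B2 or A2plus. The log2 change of Ccne1 ranged from -0.0065 to 0.48 and that of Ccne2 from -0.13 to 0.12 in those fits. Ccne1 was -0.062 after thinning to equal depth. Ccne2, at 0.01, was -0.0033 with DESeq2 size factors, -0.0057 without a filter, -0.010 in the DESeq2 test and -0.062 after thinning. The cause of these changes was not tested. Ccne1 had 34 to 62 counts in 3SL-labelled and 63 to 140 in untreated-labelled libraries, and Ccne2 had 46 to 54 and 59 to 210 in the same order.

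The letters A, B and C were not taken to pair the libraries: same-letter deviations correlated at 0.004, 0.066 and -0.012 over 9288 genes. With a replicate block by letter, 951 genes were called in 3SL-labelled against untreated-labelled libraries and 2 of the 10 genes, Ccne2 was -0.0053 and no call among the 10 genes changed.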
